A study of Mus musculus with 5 samples.

Results

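The enzymes that turn cholesterol into bile acids were followed through mouse liver cells as a set of 9 genes: Cyp7a1, Cyp27a1, Cyp7b1, Hsd3b7, Cyp8b1, Akr1d1, Amacr, Slc27a5 and Baat. They were chosen by name, and all 9 were found among the 18307 genes of one liver count table and the 22194 genes of the other. Single-cell RNA was counted in 3 liver libraries made with a 10x Genomics droplet kit, which tags each RNA molecule with a unique molecular identifier (UMI). One library is labelled DKO on an ApoE background, one WT on an ApoE background, and one WT with no background named. The protocol calls the first animals Liver-DKO, with no expansion of the letters. By its title the study is about epsins of the liver, adaptor proteins of endocytosis, in atherosclerosis. Strain, age, sex, diet and the driver of any deletion are not stated in the labels used here. The protocol mentions 3 mice without tying them to libraries. Each group is 1 library, and no difference below has a replicate check. The aorta libraries of the series were not used.

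Bile acids are made in hepatocytes by a neutral route, opened by Cyp7a1, and an acidic route, opened by Cyp27a1 and continued by Cyp7b1. Both routes share enzymes that rebuild the sterol ring and shorten the side chain, and the product is joined to taurine or glycine before it is secreted into bile. Cyp7a1 is the rate-limiting step of the neutral route. Bile acids returning to the liver repress it through the receptor FXR (Nr1h4) and its target SHP (Nr0b2). The receptor Fgfr4 with its partner Klb represses it by a separate arm. Hepatocytes lie along an axis from the portal vein (periportal) to the central vein (pericentral), and many metabolic genes are expressed toward one end of it.

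Levels are UMIs scaled to a total of 1000000 UMIs in the same cells (CPM). They come from the 3′ end of transcripts and were compared within a gene, not between genes. The hepatocyte class held 3213 cells of the library labelled DKO, 4015 of that labelled WT on the ApoE background and 261 of that labelled WT. Intervals are at 95% and cover counting error only. A gene is called higher past the fold where one level is at least 25% above the other, and lower where it is at or below 0.8 of it. At least 100 of its UMIs are needed in the cells compared. This is a rule of size and not a test. All 7 hepatocyte markers were found in the class of each library, at sums of 63764, 76670 and 75282 CPM in that order. Epn1 stood at 71.2 CPM in the hepatocytes labelled DKO and at 58.7 in those labelled WT on the ApoE background, and Epn2 at 8.62 and 7.64, so the 2 epsin genes were not lower under the DKO label. Reads outside a deleted part of a gene would still be counted, so these levels check the label only in part. Apoe stood at 32.7, 36.3 and 68.8 CPM in the libraries labelled DKO, WT on the ApoE background and WT. The 2 ApoE libraries share 4 cell barcodes. Median depth in the class was 1753, 1536 and 3018 UMIs per cell, and the median mitochondrial share 7.1%, 3.01% and 1.53%, in the same order.

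In hepatocytes, 2 of the 9 enzymes were lower past the fold under the DKO label than under the WT label on the ApoE background, and none was higher. Over all 8282 genes that met the UMI minimum, 11.0% were lower and 11.0% higher, so 2 of 9 is a count near that background. The median log2 ratio was -0.02 over the members and 0.00 over all genes. The 2 lower genes were Cyp7a1 and Cyp7b1. Landmark genes of place along the lobule also differed. Of 16 measured pericentral landmarks 4 were lower past the fold and 1 was higher, with a median log2 ratio of -0.11: Cyp2c37 was at 0.601, Rgn at 0.698, Lect2 at 0.718 and Cyp2c54 at 0.760. Of 15 periportal ones none was lower and 2 were higher, Pigr at 1.39 and Arg1 at 1.36, with Gls2 at 1.22, Asl at 0.841 and a median of 0.03. The pericentral list summed to 9266 and 10340 CPM and the periportal list to 12074 and 11554 CPM in the libraries labelled DKO and WT on the ApoE background. The part of these in the ratios of the enzymes was not tested.

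Cyp7a1 (ENSMUSG00000028240.2, chr4:6265612-6275633, minus strand) was counted at 154.3 CPM in the hepatocytes labelled DKO (1414 UMIs) and at 205.1 CPM in those labelled WT on the ApoE background (1799 UMIs). The ratio was 0.752 (interval 0.701 to 0.807). The hepatocytes labelled WT stood at 157.7 CPM from 142 UMIs, next to the library labelled DKO. This depends on the class, which holds 261 of the 616 cells of that library that the authors call hepatocytes. In its clusters 0 and 2, left out of the class, Cyp7a1 stood lower, at 103.2 and 95.1 CPM. Cyp7b1 (ENSMUSG00000039519.6, chr3:18071950-18243338, minus strand), the oxysterol 7α-hydroxylase, was at 68.9 CPM under the DKO label and 93.6 CPM under the WT label on the ApoE background, a ratio of 0.736 (0.662 to 0.817). It stood lowest, at 38.9 CPM, in the hepatocytes labelled WT. Neither gene kept its call when the ratio was taken within 5 bins of position along the lobule (described below) and averaged. The log2 ratios were then -0.30 for Cyp7a1 and -0.31 for Cyp7b1, against -0.41 and -0.44 over the whole class. Those bins hold 2412 of 3213 hepatocytes labelled DKO and 3658 of 4015 labelled WT on the ApoE background. The cells averaged are therefore not the whole class. Averaged within the authors' clusters instead, the log2 ratios were -0.68 and -0.53, and both genes kept the call.

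Cyp27a1 (ENSMUSG00000026170.6, chr1:74713574-74737892, plus strand), the mitochondrial sterol 27-hydroxylase that opens the acidic route and also oxidises the side chain, was at 157.7 and 149.7 CPM in the libraries labelled DKO and WT on the ApoE background. The ratio of 1.05 had an interval of 0.977 to 1.14, which includes no difference. Hsd3b7 (ENSMUSG00000042289.11, chr7:127800604-127803802, plus strand), the dehydrogenase that acts on 7α-hydroxylated sterols of both routes, was at 112.1 and 111.3 CPM, a ratio of 1.01 (0.922 to 1.10). Akr1d1 (ENSMUSG00000038641.12, chr6:37530173-37568815, plus strand), the reductase that gives the ring its bent shape, was at 242.4 and 244.6 CPM. Its ratio of 0.991 had an interval of 0.934 to 1.05.

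Cyp8b1 (ENSMUSG00000050445.4, chr9:121914356-121916305, minus strand) is the sterol 12α-hydroxylase that sets the share of cholic acid. It was the most thinly counted member of the ApoE libraries, with 312 and 285 UMIs in the libraries labelled DKO and WT on the ApoE background, 34.1 and 32.5 CPM, and a ratio of 1.05 (0.890 to 1.23). The hepatocytes labelled WT stood highest, at 60.0 CPM. By its ratios Cyp8b1 was lower at the pericentral end, where Cyp7a1 was higher, but some of their intervals include 1 (below). Of the member windows in the RefSeq promoter table (GRCm38.p6, the build of the counts), 1 lies outside annotated exons and also outside its own gene. That window is the one of Cyp8b1. For these reasons the 250 bases before its start are printed. They cover chr9:121916306-121916555 on the minus strand, and capitals mark letters that match a TATA box and a known site of the nuclear receptor HNF4A.
Cyp8b1 promoter: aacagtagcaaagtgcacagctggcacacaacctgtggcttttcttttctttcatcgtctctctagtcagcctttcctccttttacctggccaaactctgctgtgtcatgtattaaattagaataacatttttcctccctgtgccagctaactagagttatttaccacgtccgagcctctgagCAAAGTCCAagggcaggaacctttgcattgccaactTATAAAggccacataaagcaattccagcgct
The TATA box match (TATAAA) lies at -31 to -26 from the start, and 12.4% of the 32851 promoters in the table hold it on either strand in the same 250 bases. The HNF4A match (CAAAGTCCA) lies at -67 to -59 and is held by 0.384% of those promoters. That last motif was added to the search after the sequence had been read, so its match is a description and no more. Both strands held no match to the Nr5a2 site TCAAGGNCA (1.39% of promoters), the nuclear receptor half-site AGGTCA (14%) or the TCF site CTTTGAT (3.21%). The table also holds windows for Cyp27a1, Akr1d1 and Hsd3b7, so 4 of the 9 members matched it, and of the 5 motifs only AGGTCA was found in those 3, with 2 matches in the window of Akr1d1.

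The genes of side chain shortening and conjugation were all inside the fold between the ApoE libraries. Slc27a5 (ENSMUSG00000030382.15, chr7:12988346-12998192, minus strand), which activates bile acids with coenzyme A, was at 164.4 and 193.9 CPM in the libraries labelled DKO and WT on the ApoE background. Its ratio of 0.848 (0.791 to 0.909) lay below 1 by more than counting error and inside the fold rule. Baat (ENSMUSG00000039653.9, chr4:49489422-49506557, minus strand), which joins the activated acid to taurine or glycine, was at 111.6 and 114.3 CPM. Amacr (ENSMUSG00000022244.7, chr15:10981756-10996626, plus strand), the racemase needed before peroxisomal side chain oxidation, was at 49.2 and 49.8 CPM. The ratios of Baat and Amacr were 0.976 and 0.988.

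**Figure D1:**
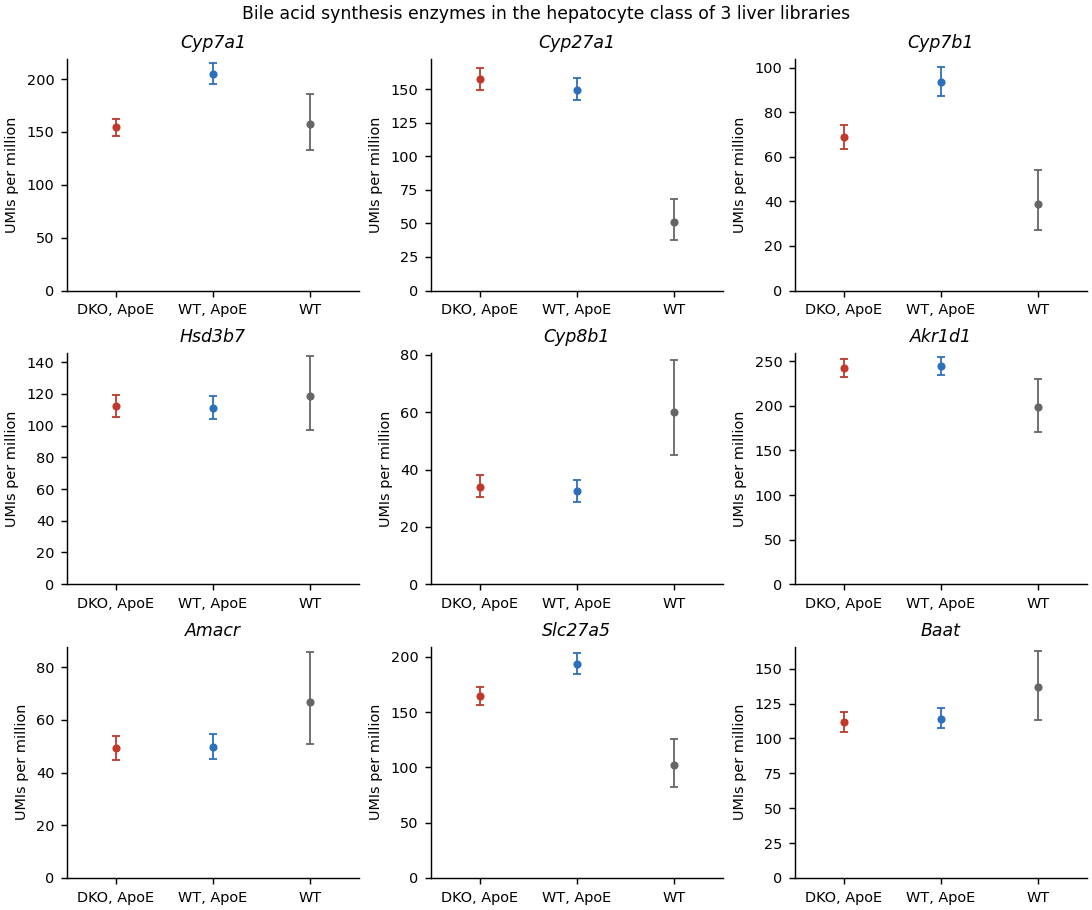
Level of each enzyme (CPM, linear axes from 0) in the hepatocytes of the 3 libraries, with exact Poisson 95% intervals that cover counting error only. Cyp7a1 and Cyp7b1 were highest in the library labelled WT on the ApoE background, at 205.1 and 93.6 CPM, while the intervals of Hsd3b7, Akr1d1, Amacr and Baat overlap between the 2 ApoE libraries.

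Shares of cells with a UMI had intervals that did not overlap for 3 members: Cyp7a1, Cyp7b1 and Slc27a5. How many of all genes separate in this way was not counted, so 3 of 9 is not read as particular to these enzymes. Each hepatocyte was thinned to 1000 UMIs, which left out 925 shallower cells of the library labelled DKO and 301 of that labelled WT on the ApoE background. At least 1 Cyp7a1 UMI was then found in 12.9% (11.5 to 14.3, Clopper-Pearson) of cells labelled DKO and 18.1% (16.9 to 19.4) of cells labelled WT on the ApoE background. For Cyp7b1 the shares were 5.73% and 8.78%, and for Slc27a5 14.8% and 19.0%. The intervals of the other 6 members overlapped, for example those of Akr1d1 at 21.9% and 21.6%. Without thinning, Cyp7a1 was found in 25.2% and 30.1% of cells. T cells, which should lack the gene, were taken as a background, at median depths of 1887 and 2685 UMIs before thinning. After it, 2.76% and 7.06% of them had a Cyp7a1 UMI. Both shares lie below those of hepatocytes, and the background share was itself higher in the library labelled WT on the ApoE background. The 2 T cell shares rest on 10 and 6 cells, and their intervals overlap. The T cell shares were 1.10% and 2.35% for Cyp7b1, from 4 and 2 cells. For Slc27a5 they were 7.73% and 3.53%, from 28 and 3 cells, with intervals that overlap. Over all T cell UMIs, without thinning, Slc27a5 went the other way, at 69.6 and 112.5 CPM in the same order. Those intervals overlap too, so the direction of the Slc27a5 background is not resolved. The part of free RNA in these differences was not tested.

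Markers of other cells in the hepatocyte class were at low levels in both ApoE libraries. In the libraries labelled DKO and WT on the ApoE background, the erythroid list summed to 114.9 and 9.24 CPM (4 of 4 genes with UMIs in both) and the pancreatic acinar list to 14.7 and 96.6 CPM (7 of 7 in both). Plasma cell genes summed to 10.9 and 47.4 CPM (3 of 3 in both). Cholangiocyte genes summed to 8.73 (4 of 5, Krt7 at 0) and 4.22 CPM (3 of 5, Krt7 and Epcam at 0), and endothelial genes to 5.02 (4 of 6, Clec4g and Lyve1 at 0) and 5.47 CPM (4 of 6, Lyve1 and Cdh5 at 0). Stellate cell genes summed to 8.30 and 8.32 CPM (3 of 3 in the table), T cell genes to 1.31 and 1.3 CPM (5 of 5), B cell genes to 2.07 (4 of 4) and 0.684 CPM (3 of 4, Cd79b at 0) and neutrophil genes to 1.42 (3 of 4, Retnlg at 0) and 5.47 CPM (4 of 4). Kupffer cell genes summed to 0.655 and 4.33 CPM, 3 of 7 with UMIs under the DKO label (Vsig4, Timd4, Marco and Adgre1 at 0) and 7 of 7 under the other. The RNA Gm42418, which overlaps ribosomal RNA, stood at 38878 and 23346 CPM, and Alb at 37794 and 44388 CPM. The part of these, of depth and of mitochondrial share in the differences between libraries was not tested. Without mitochondrial, haemoglobin, Gm42418, AY036118 and Malat1 UMIs in the total, the log2 ratio of Cyp7a1 was -0.33 and that of Cyp7b1 -0.36, against -0.41 and -0.44 with them.

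Within the authors' clusters, the Cyp7a1 ratio of the library labelled DKO to that labelled WT, here and below that on the ApoE background unless stated, was uneven. It was 0.936 (0.822 to 1.07) in cluster 5, 0.907 (0.779 to 1.06) in cluster 8 and 0.920 (0.743 to 1.14) in cluster 4, all of which include no difference. In cluster 7 it was 0.420 (0.302 to 0.584), in cluster 2 0.477 (0.349 to 0.649), in cluster 3 0.455 (0.299 to 0.671) and in cluster 6, from 6 and 102 UMIs, 0.329 (0.118 to 0.741). Clusters 0 and 1 lay between, at 0.750 (0.553 to 1.01) and 0.839 (0.639 to 1.09). Cluster 5 is led by pericentral genes such as Glul, Oat and Cyp1a2, and cluster 7 by periportal genes such as Cyp2f2, Gls2 and Gldc. Cluster 2 is led by Gm42418 and similar RNAs, with a median mitochondrial share of 0.382% and 0.545% and 945 and 1287 UMIs per cell. Over all genes, the shares lower past the fold in clusters 0 to 8 were 20.2%, 21.8%, 31.4%, 30.8%, 29.7%, 13.2%, 42.3%, 13.7% and 15.0%, and those higher 18.6%, 22.1%, 13.4%, 11.3%, 13.1%, 15.6%, 10.3%, 12.6% and 8.27%. The median log2 ratio over all genes was -0.12, -0.14 and -0.22 in clusters 2, 3 and 6, where that of Cyp7a1 was -1.07, -1.13 and -1.60. In cluster 7 it was -0.02, but the pericentral gene Cyp2e1 stood at 224.8 CPM under the DKO label and 498.8 under the WT label there, a ratio of 0.451 (0.400 to 0.508) beside the 0.420 of Cyp7a1. The cells of cluster 7 thus differed in Cyp2e1 too, and the part of place along the lobule was not tested. Whether the ratio differs between clusters has no test with 1 library per group.

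Cyp27a1 and Hsd3b7, with ratios near 1 over the whole class, had ratios on both sides of 1 within clusters. Cyp27a1 was at 192.7 CPM under the DKO label and 141.3 under the WT label in cluster 5, a ratio of 1.36 (1.14 to 1.64), and at 280.7 and 212.6 in cluster 8, a ratio of 1.32 (1.14 to 1.53). In cluster 4 its ratio was 0.747 (0.598 to 0.931). Hsd3b7 had ratios of 1.67 (1.16 to 2.40), 1.74 (1.17 to 2.56) and 1.51 (1.11 to 2.06) in clusters 1, 3 and 4, and of 0.828 (0.704 to 0.975) and 0.668 (0.519 to 0.861) in clusters 5 and 7. In cluster 4 the library labelled DKO was deeper, at a median of 3817 against 2027 UMIs per cell, with mitochondrial shares of 13.5% and 3.67%.

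**Figure D2:**
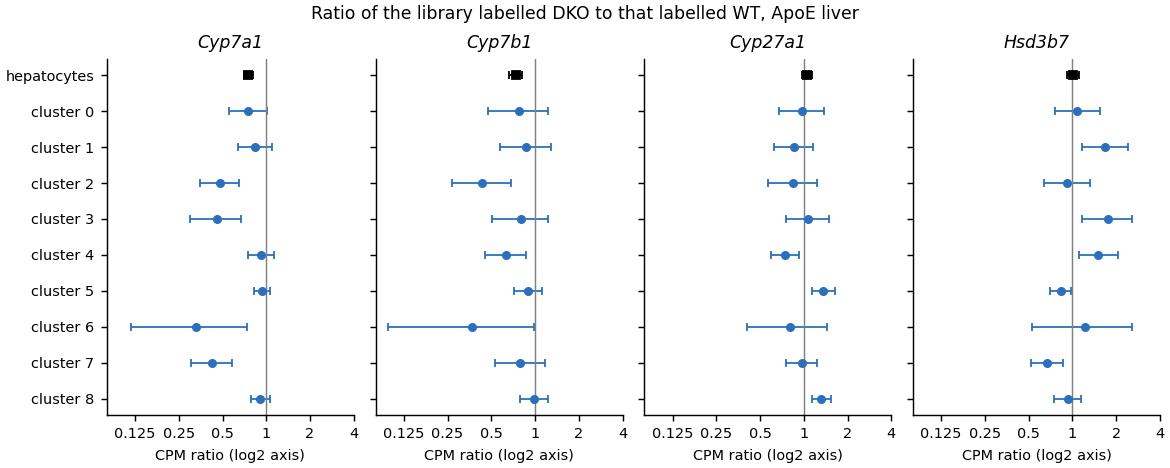
Ratio of the library labelled DKO to that labelled WT on the ApoE background (log2 axis) for 4 enzymes, in all hepatocytes (black squares) and in the authors' clusters 0 to 8 (blue points), with exact 95% intervals for counting error. The Cyp7a1 points lie near 1 in clusters 4, 5 and 8 and at 0.420 in cluster 7, while those of Hsd3b7 lie on both sides of 1.

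Some of the 9 enzymes differed in level along the lobule. The clusters were made from these same cells, so differences between them are a description. Comparing cluster 5 (pericentral-led) with cluster 7 (periportal-led), 4 members were higher past the fold in cluster 5 in both ApoE libraries: Cyp7a1, Cyp7b1, Hsd3b7 and Cyp27a1. Over all genes 29.3% and 25.9% were, in the libraries labelled DKO and WT each taken alone. Taken alone, each library also had 4 members higher, of 9 and 8 with enough UMIs. With so few members, the count is not read as a trait of the set. These clusters had like depths, with medians of 4239 and 5308 UMIs per cell under the DKO label and 4336 and 5281 under the WT label.

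Cyp7a1 had the widest range. Under the DKO label it ran from 30.4 CPM in cluster 7 to 299.7 in cluster 5, 9.84-fold (7.69 to 12.8), and under the WT label from 72.4 to 320.0 CPM, 4.42-fold (3.48 to 5.68). Under the DKO label clusters 8, 4 and 1 followed at 214.3, 201.3 and 173.1 CPM, with overlapping intervals. Under the WT label the intervals of clusters 8, 3, 4 and 1 overlap, at 236.3, 223.1, 218.9 and 206.2 CPM, so their order is not resolved. Cyp7b1 was 3.21-fold and 2.82-fold higher in cluster 5 than in cluster 7 in the libraries labelled DKO and WT, Hsd3b7 2.81-fold and 2.27-fold, and Cyp27a1 2.19-fold and 1.55-fold.

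Slc27a5 lay the other way, and Cyp8b1 did by its ratios, with an interval under the DKO label that includes 1. Slc27a5 in cluster 5 was 0.595 (0.501 to 0.703) and 0.727 (0.584 to 0.902) of its level in cluster 7 in the libraries labelled DKO and WT. Cyp8b1 was at 0.799 (0.566 to 1.12) and 0.619 (0.406 to 0.936). Lower past the fold were 19.0% and 16.8% of all genes. Akr1d1, Baat and Amacr had ratios from 0.878 to 1.06, and all 6 intervals include 1.

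Cluster 8, led by Esrrg and long genes such as Tenm3, set Cyp27a1 apart from Cyp7a1 and Hsd3b7. Cyp27a1 in cluster 5 was 0.686 and 0.665 of its level in cluster 8 in the libraries labelled DKO and WT, while Cyp7a1 was 1.40-fold and 1.35-fold higher in cluster 5 and Hsd3b7 1.59-fold and 1.78-fold. Cyp7b1 did not follow Cyp27a1 there, with ratios of 0.935 (0.757 to 1.15) and 1.02 (0.806 to 1.30). Of all genes, 26.4% and 18.8% were higher and 30.2% and 31.7% lower in cluster 5 than in cluster 8.

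**Figure D3:**
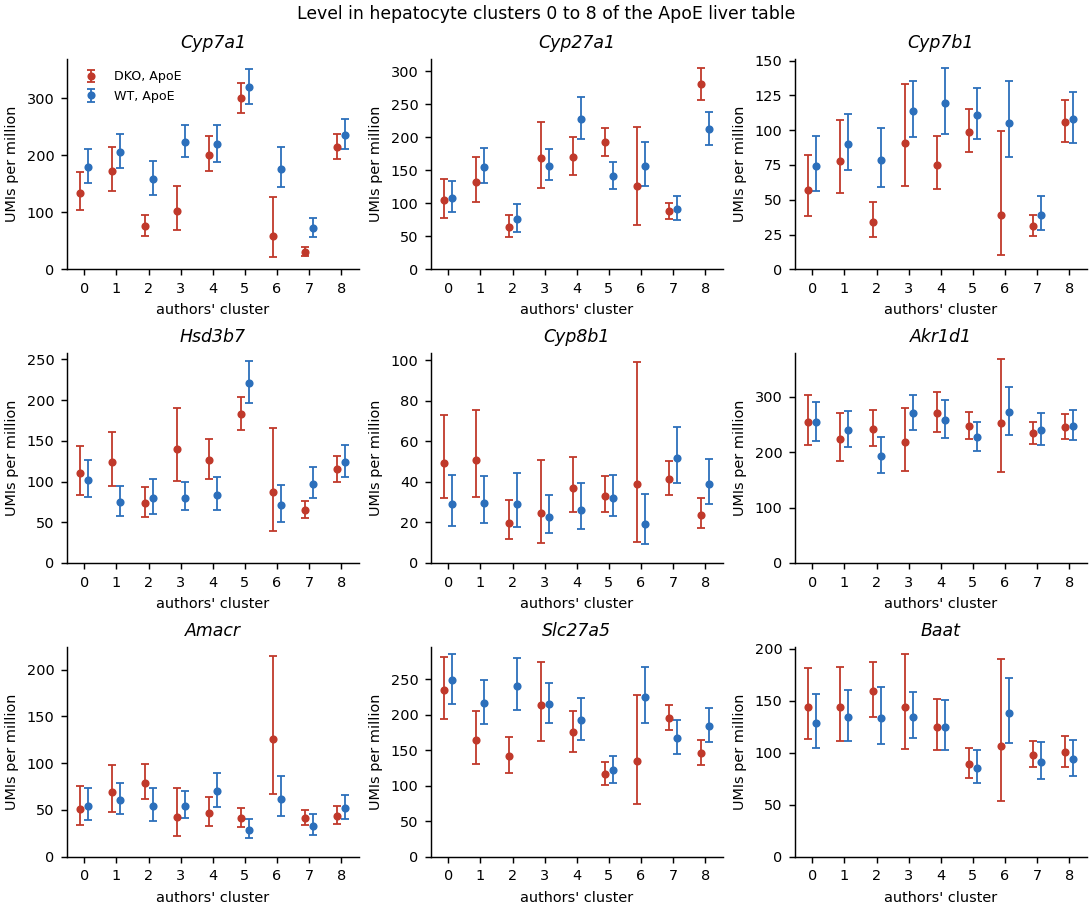
Level of each enzyme (CPM, linear axes from 0) in the authors' hepatocyte clusters 0 to 8 of both ApoE libraries, with exact Poisson 95% intervals. Cyp7a1 runs from 30.4 and 72.4 CPM in cluster 7 to 299.7 and 320.0 CPM in cluster 5, while Akr1d1 stays near one level.

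Place was also read without the cluster labels, from the share of 17 pericentral genes among the UMIs of 17 pericentral and 16 periportal landmark genes. None of these landmarks is a member. Clusters 5 and 7 are led by several of them in the same cells, so this reading is not independent of the clusters. Cells with at least 20 landmark UMIs were divided into 5 bins at shares of 29.9%, 41.2%, 49.2% and 59.0%. This used 2412, 3658 and 225 hepatocytes of the libraries labelled DKO, WT on the ApoE background and WT, of which 301, 655 and 24 lie within 1 percentage point of a cut. The bins are ranges of 1 score and not cell types.

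From the most periportal to the most pericentral bin, Cyp7a1 stood at 48.6, 169.0, 169.3, 212.2 and 298.1 CPM under the DKO label. Under the WT label on the ApoE background it stood at 99.3, 177.0, 194.4, 228.2 and 320.1 CPM. The ends differed 6.13-fold (5.13 to 7.36) and 3.22-fold (2.69 to 3.88). Cyp7b1 was 3.12-fold and 2.5-fold higher at the pericentral end, Hsd3b7 2.59-fold and 2.22-fold, and Cyp27a1 2.19-fold and 1.45-fold. The size of this difference depends on the cells kept: with at least 50 landmark UMIs per cell, Cyp7a1 was 14.1-fold and 7.77-fold higher, Cyp27a1 2.55-fold and 2.46-fold, and Hsd3b7 2.79-fold and 3.34-fold, from 297 and 202 cells at the pericentral end and 376 and 122 at the other. Over all genes, 23.7% and 22.1% were higher past the fold.

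Cyp8b1 had no steady run over the bins. In the same order it stood at 37.5, 35.5, 30.8, 38.7 and 25.9 CPM under the DKO label. Under the WT label on the ApoE background it stood at 41.6, 28.7, 30.0, 35.7 and 30.2 CPM. At the pericentral end it was 0.690 (0.486 to 0.967) and 0.725 (0.492 to 1.06) of its periportal level in these libraries. Lower past the fold were 16.7% and 20.1% of all genes. Slc27a5 was at 0.737 (0.635 to 0.853) under the DKO label and at 1.02 (0.865 to 1.21) under the WT label. The library labelled WT, with 37 cells at the pericentral end and 94 at the other, had Cyp7a1 at 333.9 and 135.8 CPM, 2.46-fold (1.61 to 3.76) from 95 UMIs, and Hsd3b7 2.0-fold (1.19 to 3.32), both under the UMI minimum. Of the 737 genes above it there, 29.0% were higher and 23.5% lower.

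Set side by side at each bin, the libraries labelled DKO and WT on the ApoE background differed in Cyp7a1 mainly in the most periportal bin. The ratio was 0.490 (0.390 to 0.616) in the most periportal bin and 0.955, 0.871, 0.930 and 0.931 in the others, whose intervals all include 1. Over all genes, the shares lower in the 5 bins were 15.1%, 19.9%, 19.6%, 18.9% and 13.4%, and those higher 10.4%, 11.3%, 14.1%, 18.5% and 14.8%. The library labelled DKO had 782 of its 2412 cells there and that labelled WT 432 of 3658. Its bin was also deeper, with medians of 3925 and 2789 UMIs, and had less Cyp2e1, at 437.8 against 738.0 CPM, so the cells compared do not match fully in place along the lobule. That part was not tested. The bins leave out cells with few landmark UMIs and hold 2412 of 3213 and 3658 of 4015 hepatocytes of these libraries. Among the clusters, low Cyp7a1 ratios were not confined to the periportal-led one. Clusters 2 and 3, which no periportal landmark leads, stood at 0.477 and 0.455.

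Cyp27a1 differed at the other end, with ratios of 1.42 and 1.45, both with intervals above 1, in the 2 most pericentral bins and 0.962, 0.887 and 1.03 in the rest. Cyp7b1 had ratios from 0.757 to 0.943 in all 5 bins, 4 of which had intervals that include 1. Slc27a5 ran from 1.07 in the most periportal bin to 0.656 (0.538 to 0.797) in bin 4 and 0.772 (0.651 to 0.914) in the most pericentral one.

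**Figure D4:**
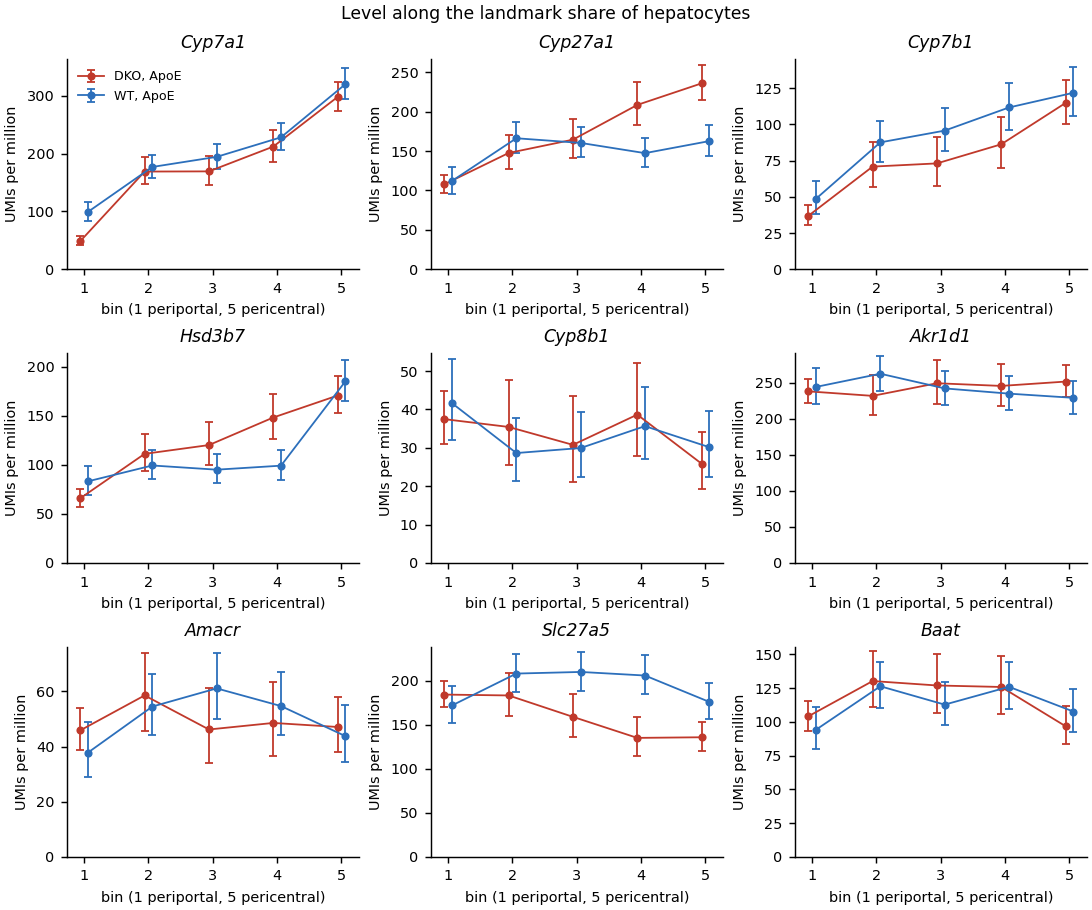
Level of each enzyme (CPM, linear axes from 0) in 5 bins of the landmark share, from 1 (periportal) to 5 (pericentral), in both ApoE libraries, with exact Poisson 95% intervals. Cyp7a1 reaches 298.1 and 320.1 CPM in bin 5 from 48.6 and 99.3 CPM in bin 1, and the 2 libraries lie apart for it in bin 1.

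Outside hepatocytes, all 9 enzymes were lower past the fold in both ApoE libraries, when T, B, Kupffer, endothelial cells and neutrophils were summed (949 and 291 cells labelled DKO and WT). Of all genes, 36.7% and 33.7% were lower and 47.1% and 39.5% higher. The enzymes' levels there were above 0, and so was Alb, the plasma protein made by hepatocytes: it stood at 0.377 and 0.610 of its hepatocyte level. Free hepatocyte RNA in droplets would give such UMIs in every cell, and no doublet caller was run. The levels are therefore given relative to Alb, and their source was not tested.

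Relative to Alb, Cyp7a1 stood at 0.506 (0.371 to 0.675) and 0.585 (0.432 to 0.775) of its hepatocyte level and Akr1d1 at 0.705 and 0.491 in the libraries labelled DKO and WT. Slc27a5 was at 1.31 (1.09 to 1.56) and 1.20 (0.968 to 1.47), and Amacr at 1.59 (1.15 to 2.14) and 0.867 (0.509 to 1.39). Amacr thus passed its Alb-scaled level in one library only, from 48 UMIs. Cyp27a1 was at 0.444 and 0.705 relative to Alb over all these cells. In Kupffer cells alone, the macrophages of the liver, it was at 0.919 (0.501 to 1.55) and 0.573 (0.261 to 1.09), from 14 and 9 UMIs. Other hepatocyte genes did not all follow Alb either: Apoa1 was at 1.19 and 1.14, Ttr at 1.03 and 1.14, and the periportal gene Cps1 at 0.561 and 0.452 relative to it. A value off 1 on this scale therefore does not by itself tell one source from another.

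**Figure D5:**
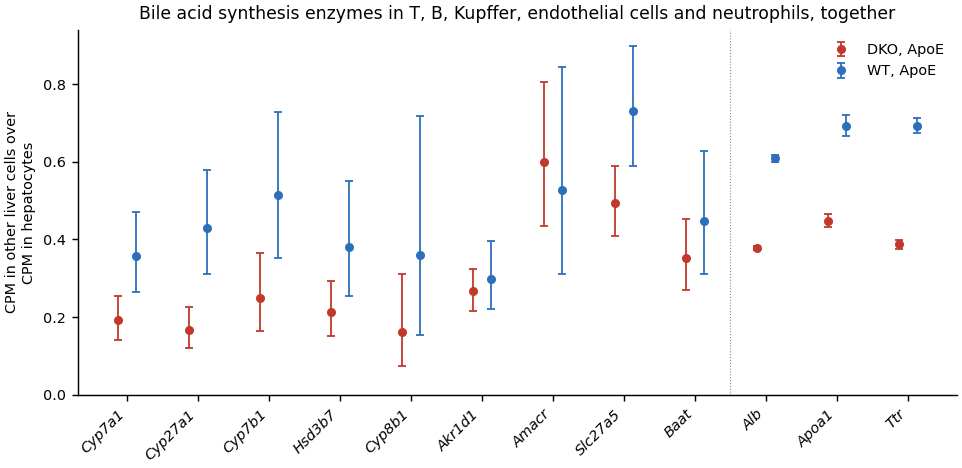
CPM in the other liver cells together over CPM in hepatocytes for the 9 enzymes and for Alb, Apoa1 and Ttr (right of the dotted line), in both ApoE libraries, with exact 95% intervals. All 9 enzymes lie below 1, and Alb lies at 0.377 and 0.610.

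Set against the library labelled WT with no background, the hepatocytes labelled WT on the ApoE background had 4 members higher and 2 lower past the fold. Over all 6875 genes, 27.1% were higher and 30.0% lower, so calls of this size are common here. Among the members, 2 genes stood furthest apart: Cyp27a1 was 2.93-fold (2.18 to 4.02) and Cyp7b1 2.41-fold (1.72 to 3.48) higher on the ApoE background. Slc27a5 was 1.90-fold (1.54 to 2.37) and Cyp7a1 1.30-fold (1.10 to 1.55) higher. Over every cell the authors call a hepatocyte, the log2 ratio of Cyp7a1 was 0.67, against 0.38 in the class, and 5 members were higher. Cyp8b1, at 0.542 (0.404 to 0.739), and Amacr, at 0.748 (0.570 to 0.997), were lower. Of the lists described below, 5 of 11 measured synthesis genes, 11 of 11 bile acid transporters and 8 of 17 regulators were higher here. Lower were 1, 0 and 4 of them.

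Those 2 libraries are in separate tables and differ in more than background. In the hepatocytes labelled WT, cholangiocyte genes summed to 238.7 CPM (3 of 5 genes with UMIs, Krt19 and Krt7 at 0) and Kupffer cell genes to 138.8 CPM (7 of 7). On the ApoE background the sums were 4.22 CPM (3 of 5, Krt7 and Epcam at 0) and 4.33 CPM (7 of 7). The 17 pericentral landmarks summed to 5366 and 10340 CPM in the libraries labelled WT and WT on the ApoE background. Background, table and these differences cannot be told apart.

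Other genes of the pathway were counted from lists of synthesis genes, transporters and regulators. Between the libraries labelled DKO and WT on the ApoE background, 0 of 12 measured synthesis genes were higher and 2 lower, beside 11.0% each way over all genes: Akr1c6 at 0.680 (0.660 to 0.700) and Cyp2c70, the mouse enzyme that makes muricholic acids, at 0.689 (0.666 to 0.713). Acot8 and Acox2, a peroxisomal thioesterase and oxidase, were at 1.19 and 1.14. The list's median log2 ratio was -0.03.

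Of 11 measured bile acid transporters, none was higher and 1 was lower, beside the same 11.0% each way, with a median of -0.04. Slco1a1, an uptake carrier, was at 0.793 (0.712 to 0.884), Slco1a4 at 0.818 and Abcc3, a basolateral export pump, at 1.17. Slc10a1, the main uptake carrier, was at 1.10.

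Of the 18 regulators, 4 were higher and none lower, beside 11.0% each way over all genes, with a median of 0.06: Mafg at 1.43 (1.23 to 1.66), Fgfr4 at 1.40 (1.05 to 1.88), Ppara at 1.27 (1.21 to 1.33) and Hnf4a at 1.26 (1.19 to 1.34). Mafg and Hnf4a are transcription factors and Ppara a receptor for fatty acids. Nr1h4 and Nr0b2, named for their place in the feedback and after their values were seen, were at 0.888 and 0.858, inside the fold rule.

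Likeness between genes was read over 19 units, the hepatocyte clusters of each ApoE library with at least 50 cells. These are not positions along the lobule. Over 4147 genes, the highest Pearson correlations of log2(CPM + 20) with Cyp7a1 were those of Cyp2c38 (0.97), Slco1a1 (0.95) and Cyp2c50 (0.90). Slco1a1 was also the most like Cyp7b1 (0.93), and Cyp1a2 was second for Hsd3b7 (0.88), after Ptp4a2 (0.91). Cyp27a1 was most like Esrrg (0.95), Lifr and Phldb2 (both 0.94), and Cyp8b1 most like Apoa5 (0.80). Among members, Cyp7a1 and Cyp7b1 had an r of 0.84, Cyp27a1 and Cyp7b1 0.81, and Cyp7a1 and Cyp8b1 -0.34. These units share libraries and differ in depth, so the correlations are descriptions.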

How the data were processed

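Single-cell libraries of 3 liver samples were read from 2 tables. The authors deposited raw UMI counts per gene and cell, made with Cell Ranger 7.1.0 on build mm10, per the submitters' processing notes. Other units, such as cell type and cluster per cell, come from the metadata the authors deposited; no source read here says how cells were filtered or named. The lowest UMI total was 500 per cell and the highest mitochondrial share 20.0%, so deposited cells were a selected set. Total counts were 10999072, 9497896 and 1883798 UMIs in the libraries labelled DKO and WT on the ApoE background and WT.

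The hepatocyte class was clusters 0 to 8 and 13 of the ApoE table and 3, 4, 8 and 12 of the other. Clusters 14, 16 and 18, led by erythroid, acinar and cholangiocyte genes, and clusters 0 (Spp1) and 2 (haemoglobin) of the other table were left out, although the authors call them hepatocytes. No doublet caller was run. UMIs were summed per class and divided by the class total. Intervals are exact Poisson for CPM, conditional binomial for ratios and Clopper-Pearson for shares, at 95%. With 1 library per group no test was possible. The ratio script was tested on simulated data.

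All 9 members are named; of each list of synthesis genes, transporters, regulators and landmarks, the 4 genes with the largest absolute log2 ratio between the ApoE libraries are named. Nr1h4 and Nr0b2 fall outside that rule, as do genes given beside a result as a check of place, markers or free RNA. Members and lists were chosen with earlier results of these data known. Gene positions are from GENCODE M21 and sequences from RefSeq. The motifs searched were not on a list fixed earlier, and the HNF4A motif was added after the Cyp8b1 sequence had been read. Alternatives changed the weight of cells, the scale, the cell filter, the class, the cluster makeup, the threshold, the UMI minimum, the landmarks and the thinning. Python 3.11.15, numpy 2.4.6, scipy 1.17.1 and pandas 2.3.3 were used.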

Additional observations from a re-analysis of the deposited data

How the results depend on the processing

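Between the libraries labelled DKO and WT on the ApoE background, 2 members passed the fold. The count was 4 (Hsd3b7 and Cyp8b1 higher at 0.42 and 0.45, Cyp7a1 and Cyp7b1 lower) in cells of 500 or more genes whose mitochondrial share was under 10%, and 0 at a threshold of 1.5-fold; under the other 6 alternatives it was 2. The genes were not always Cyp7a1 and Cyp7b1: in clusters 5, 7 and 8 alone, Cyp7a1 (log2 ratio -0.39) and Hsd3b7 (-0.39) passed and Cyp7b1 (-0.26) did not. Averaged within bins of the landmark share, Cyp7a1 (-0.30) and Cyp7b1 (-0.31) both fell short of the threshold. The log2 ratios of both stayed below 0 in 7 of 7 alternatives, from -0.68 to -0.30 for Cyp7a1 and from -0.68 to -0.26 for Cyp7b1. Hsd3b7 ran from -0.39 to 0.42, so its direction was not fixed. Members with non-overlapping shares of cells numbered 3 after thinning and 7 without it, in libraries of unequal depth. Neither count has a count over all genes beside it. Without thinning, Cyp7a1 was lower under the DKO label, 6 members were higher (Akr1d1 at 43.5% and 37.7%), and Cyp7b1 and Slc27a5 overlapped. The count against the library labelled WT ran from 4 to 7 around 6, and the 4 members higher at the pericentral end stayed 4 under each alternative run, although with at least 50 landmark UMIs the Cyp7a1 ends differed 14.1-fold and 7.77-fold against 6.13-fold and 3.22-fold. No paired analysis was possible because each group has 1 library. Depth limits Cyp8b1 most, and within clusters few of its ratios reach the UMI minimum.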

Other observations

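Other genes of the pathway also differed between the pericentral-led cluster 5 and the periportal-led cluster 7. The genes named here were chosen after their values were seen. Slco1a1, an uptake carrier of the hepatocyte, was 32.4-fold (17.8 to 65.7) and 7.56-fold (4.75 to 12.7) higher in cluster 5 in the libraries labelled DKO and WT on the ApoE background, from 11 and 20 UMIs in cluster 7. Slco1b2 was 2.74-fold and 2.26-fold higher, and Akr1c6 3.11-fold and 2.34-fold. The electron donors were higher as well: Por, which serves the microsomal cytochromes P450, was 1.73-fold and 1.66-fold higher, and Fdx1, which serves the mitochondrial ones, 1.52-fold and 1.37-fold. The canalicular bile salt pump Abcb11 lay the other way, at 0.707 (0.627 to 0.796) and 0.722 (0.619 to 0.842). Slc10a1 was at 0.933 and 1.04, and Nr1h4 at 0.876 and 0.872.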
